A study of Homo sapiens with 8 samples.

Results

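The genes of glycolysis and of the transport of glucose and lactate were examined in hiPS-CMs (cardiomyocytes differentiated from human induced pluripotent stem cells) after hypoxia/reoxygenation (H/R). The 31 genes were chosen by symbol, without a cut on their values, from 60658 genes listed in the expression table. The choice was made with earlier results of these data known, and each symbol matched 1 row. RNA sequencing covered 8 libraries, 4 for each of 2 groups named H/R and H/R+BA. Cells of both groups came from 1 iPSC line, named 235G1 in the labels and 253G1 in the paper, and spent 12 h at 1% O2 in serum-free DMEM with 0.3 g/L glucose and then 12 h under reoxygenation. For these last 12 h, the H/R group received DMEM with serum and the H/R+BA group received medium conditioned by sheets of brown adipocytes (BAs) differentiated from rat brown preadipocytes. The medium that maintained the adipocytes held insulin and triiodothyronine, and the sources used here do not say how much of either, or of glucose, the conditioned medium held. No library without H/R was analysed, so every difference is between 2 groups that had both been through hypoxia. The labels do not say whether replicates were separate differentiations, so the spread behind each p is that among these 8 libraries and may be technical.

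Glycolysis splits glucose into pyruvate in the cytosol and yields ATP without oxygen. Lactate dehydrogenase then turns pyruvate into lactate, which leaves the cell through monocarboxylate transporters, or pyruvate enters the mitochondria, where pyruvate dehydrogenase kinases (PDKs) hold back its oxidation. The adult heart burns mainly fatty acids, whereas fetal and stem cell-derived cardiomyocytes depend more on glycolysis. Most steps are served by several isoforms from different genes, and many of these genes are known targets of the hypoxia-inducible factors.

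Expression of these genes was modestly higher in the H/R+BA group. Of the 31 genes, 29 reached the level required for testing, and 12 of them rose significantly in the H/R+BA group (limma, Benjamini-Hochberg adjusted over all 14334 genes tested). None was significantly lower, and at an unadjusted p below 0.05 the counts were 18 higher and 0 lower, against 20.7% of all genes tested higher and 17.8% lower. The 12 genes make up 41.4% of the 29, whereas 13.7% of all genes tested were called higher and 11.1% lower (24.7% in either direction). The count of 12 rested in part on single libraries, since it was 6 without H/R+BA replicate 1, 7 without H/R+BA replicate 2 and 7 without H/R replicate 4, with 9.84%, 9.59% and 12.3% of all genes called higher in those fits. Among tested genes with a mean of at least 10 FPKM, 15.1% were called higher and 12.8% lower, compared with 39.3% of the 28 genes of the pathway at that level. The changes were small, with log2 fold changes of 0.19 to 0.66 among the called genes. The median over the 29 genes was 0.23 and that over all genes tested was 0.01, and 27 of the 29 fold changes were above 0, among them that of PFKP, whose sign turned under 3 of the other scalings. All fold changes are on the scale of log2(FPKM + 1), H/R+BA minus H/R, FPKM being fragments scaled to the length of the gene and the depth of the library, and the threshold of the adjusted p is 0.05. In 11 of the 12 called genes every H/R+BA library was above every H/R library. No other tested member had separated groups, and over all genes tested 15.3% were separated in this direction and 13.3% in the other.

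**Figure D1:**
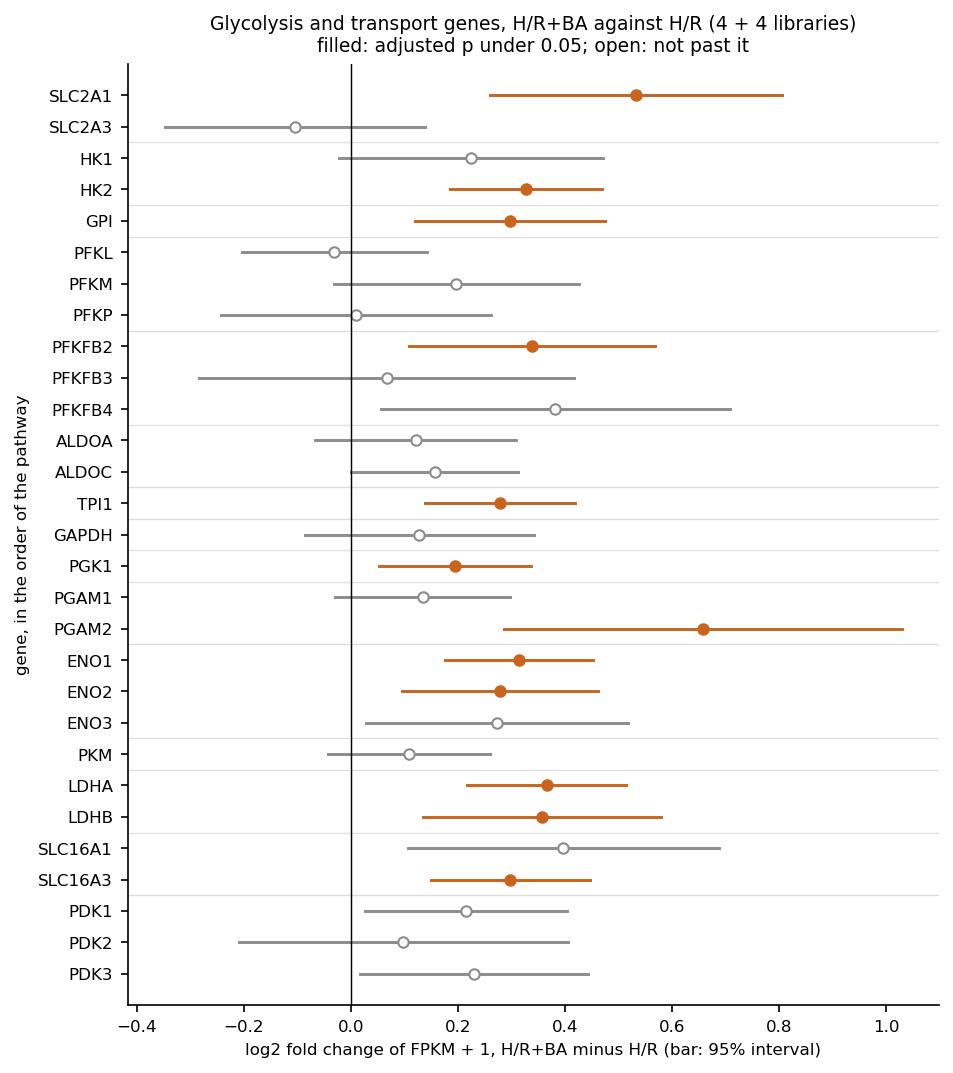
Log2 fold change of FPKM + 1 (H/R+BA minus H/R) on the x axis for the 29 genes tested, in the order of the pathway, with 95% intervals from limma as bars and with filled symbols for the 12 genes past an adjusted p of 0.05. All filled symbols lie to the right of 0, between 0.19 and 0.66, and PFKL and SLC2A3 are the 2 genes whose estimate lies to the left of it.

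The summed FPKM of all 31 genes took 2.98% to 3.21% of the total FPKM of the H/R libraries and 3.42% to 3.70% of that of the H/R+BA libraries. This total includes mitochondrial transcripts, whose share differed between libraries and is given below. When isoforms were summed, each of the 15 steps had a higher mean in the H/R+BA group. The groups did not overlap at 6 of these steps, glucose-6-phosphate isomerase, triosephosphate isomerase, phosphoglycerate kinase, the enolases, the lactate dehydrogenases and the lactate transporters. The difference of the means ran from 1.15% for the phosphofructokinases to 28.8% for the lactate dehydrogenases.

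The libraries were not alike in the RNA levels of cell type markers, and these levels are given before the single genes. Between 39854257 and 53308952 reads were obtained per library, with 95.4% to 96.3% mapped. Cardiomyocyte markers, led by MYL7, NPPA and ACTC1, were abundant in every library, and 1 of 21 was called higher and 1 lower. Their summed FPKM was 31698 and 31264 in H/R replicates 1 and 3 but 20389 and 23279 in H/R replicates 2 and 4, with 22886 to 27901 in the H/R+BA libraries. Hepatic and endoderm markers, led by SERPINA1, AFP and APOA2, ran the other way, with 4970 and 3809 in H/R replicates 2 and 4 against 2463 and 1783 in replicates 1 and 3 and 2497 to 4112 in the H/R+BA libraries. Endothelial markers (EGFL7, ESAM and KDR were the most abundant) summed to 113 to 124 FPKM after H/R and 175 to 201 FPKM after H/R+BA, and 11 of 14 tested were called higher, while VWF, CLDN5, ERG, SOX18 and APLNR stayed below 1 FPKM in every library. Pluripotency markers (POU5F1, DPPA4 and LIN28A led) summed to 6.63 to 7.60 and 15.4 to 18.8 FPKM, and 4 of 5 tested were called higher. NANOG and UTF1 stayed below 1 FPKM in every library. Of fibroblast markers, 3 of 9 tested were higher (DCN, POSTN and THY1), but none of the 3 most abundant (COL1A2, COL3A1 and COL1A1). Of 10 smooth muscle and pericyte markers, 3 were higher (RGS5, MCAM and NOTCH3) and 1 lower (MYH11). The 3 most abundant of these, TAGLN, ACTA2 and CNN1, were not called, with log2 fold changes of -0.34, -0.04 and -0.29. Of leukocyte markers (CD68, LYZ, CSF1R) 2 of 3 tested were higher. However, 8 of the 12 leukocyte markers listed, PTPRC, CD14 and AIF1 among them, stayed below 1 FPKM in every library. None of the 3 tested adipocyte markers (PPARG, PRDM16, LIPE) was called, ADIPOQ and UCP1 were below 1 FPKM in every library, and no erythroid marker (ALAS2, HBA1 and HBA2 led) reached the level required for testing. The part of these cell types in the results was not tested, and in bulk RNA a change in the number of cells of a type and a change in RNA per cell cannot be told apart.

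In FPKM as deposited, H/R replicate 2 or 4 was the lowest of the 4 H/R libraries for 23 of the 29 genes tested (79.3%), against 52.5% of all genes tested. Both were below replicates 1 and 3 for 21 of the 29 (72.4%), against 27.2% of all genes tested. Total FPKM was also lower in these libraries, at 593847 and 618404 against 649787 and 658138 in replicates 1 and 3. With FPKM rescaled to equal totals, both were below replicates 1 and 3 for 15 of the 29 genes (51.7%) and for 15.3% of all genes tested. As a percent of total FPKM, the sum of the 31 genes was 3.21, 3.09, 3.04 and 2.98 in H/R replicates 1 to 4, so that replicate 2 lay above replicate 3. On the deposited scale, H/R replicate 2 was instead the highest H/R library for 6 genes, SLC2A1, SLC2A3, HK2, PFKFB3, PFKFB4 and SLC16A3. In the H/R+BA group, replicate 1 or 2 was the highest for 28 of the 29, and the share over all genes tested was not computed. Cardiomyocyte markers summed to 27901 and 27669 FPKM in H/R+BA replicates 1 and 2, against 23445.5 and 22886 in replicates 3 and 4. Hepatic and endoderm markers summed to 2497 and 2765 FPKM in replicates 1 and 2, against 4112 and 3749 in replicates 3 and 4. Without H/R replicates 2 and 4, an alternative added after the data were seen, 8 of the 29 genes were called higher and 0 lower, against 15.1% of all genes called higher in that fit. The median log2 fold change of the 29 genes was then 0.14, compared with 0.23 with all libraries. The 8 were SLC2A1, HK2, TPI1, ENO1, LDHA and SLC16A3 of the 12, together with PFKFB3 and PFKFB4. The call was lost for 6 genes, whose log2 fold changes were smaller than with all libraries. PGAM2 went from 0.66 to 0.38 (adjusted p = 0.0676), LDHB from 0.36 to 0.21 (0.0762), GPI from 0.30 to 0.18 (0.0969), ENO2 from 0.28 to 0.18 (0.145), PFKFB2 from 0.34 to 0.25 (0.142) and PGK1 from 0.19 to 0.14 (0.161).

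**Figure D2:**
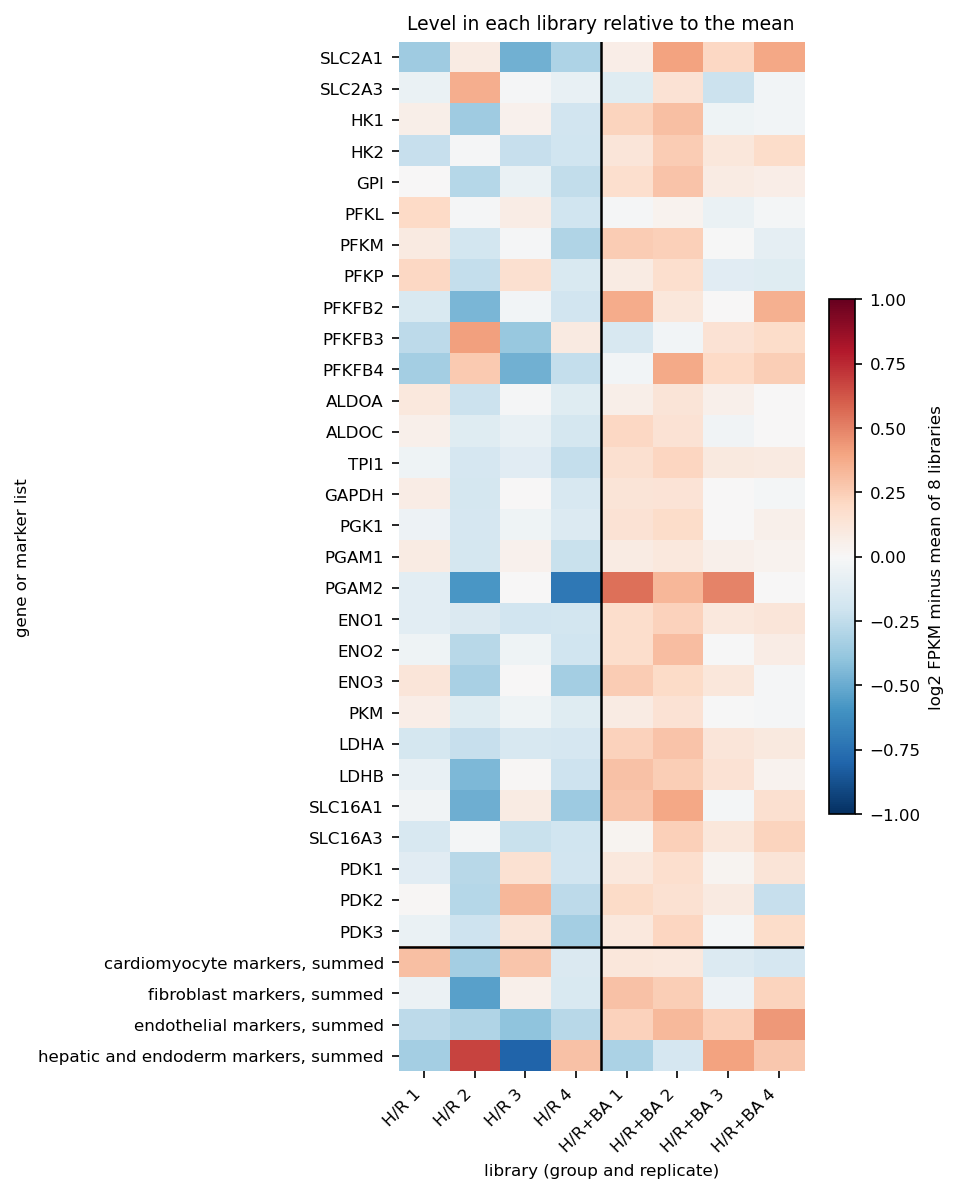
Log2 FPKM of the 29 tested genes and of 4 summed marker lists in each of the 8 libraries (x axis), minus the mean of the row over the libraries, with red above and blue below the mean. H/R 2 and H/R 4 are blue for most genes and for the cardiomyocyte sum (20389 and 23279 FPKM) and red for the hepatic and endoderm sum (4970 and 3809 FPKM). SLC2A3, PFKFB3 and PFKFB4 are the genes furthest above their mean in H/R 2.

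The promoters of the genes, called and not called, were searched for the core of the hypoxia response element, the short sequence through which hypoxia-inducible factors bind DNA. The letters ACGTG and GCGTG were sought on both strands (CACGT and CACGC on the strand shown) in RefSeq promoters (GRCh38.p14) of 250 bases before and 50 bases after the start of transcription, of which 27 of the 31 genes had one (not SLC2A3, SLC2A4, SLC16A1 and PFKFB2). Where 2 matches overlap, as in CACGTG, both were counted. ACGTG was found in 9 of the 27 promoters (33.3%) and either form in 18 (66.7%). Of the 11 called genes with a promoter, 5 held ACGTG and 9 either form, and of the 15 tested genes not called, 26.7% held ACGTG and 60.0% either form. Over all 27305 genes in the RefSeq table, 21.6% held ACGTG and 48.4% either form, and over the 9999 tested genes that could be matched to it, 69.8% of all tested, the shares were 26.6% and 63.0%. The stretches below are those of the 5 called genes with ACGTG, with every match in the stretch in capitals, printed 5′ to 3′. They lie at chr2:74834062-74834093 for HK2, chr19:34364820-34364844 for GPI, chrX:78104027-78104079 for PGK1, chr12:6914452-6914476 for ENO2 and chr11:18394368-18394504 for LDHA, all on the plus strand.
HK2: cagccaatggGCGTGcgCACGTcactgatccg
GPI: actgcctgtaACGTGgaaggtgttc
PGK1: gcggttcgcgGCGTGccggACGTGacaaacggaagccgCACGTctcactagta
ENO2: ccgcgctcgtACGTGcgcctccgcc
LDHA: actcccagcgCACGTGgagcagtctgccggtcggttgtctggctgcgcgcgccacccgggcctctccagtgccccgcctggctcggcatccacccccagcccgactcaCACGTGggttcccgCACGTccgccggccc
The LDHA stretch holds 5 matches, with CACGTG present at 2 places, the PGK1 stretch 3 and the HK2 stretch 2. A match describes these letters only. TPI1 and SLC16A3, both called higher, had no match in this window, whereas ALDOC, which was not called, had 5. Only the first listed start of each of the 27 genes was searched. The other listed starts of TPI1 (2 in all) and SLC16A3 (5 in all) were therefore left out, while ALDOC had only 1. The same holds for genes that were not called and had no match, such as HK1 and PFKM (7 starts each), PFKP (4) and PDK2 (3). The shares of called and of not called genes thus rest on 1 start per gene.

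Glucose enters cardiomyocytes through facilitative transporters. SLC2A1 (GLUT1, ENSG00000117394, chr1:42925353-42958893, minus strand) is the basal transporter of fetal heart and of many dividing cells. It was at 339, 459, 310 and 349 FPKM in H/R replicates 1 to 4 and at 455, 573, 501 and 567 FPKM in H/R+BA replicates 1 to 4, the order of libraries used for every gene below. Only H/R replicate 2 reached into the range of the H/R+BA group, and the log2 fold change was 0.53 ± 0.12 (SE, limma adjusted p = 0.0122). SLC2A3 (GLUT3), the high-affinity transporter best known from neurons, was not called, with means of 283 ± 43.5 and 262 ± 27.9 FPKM (SD, n = 4 each), a log2 fold change of -0.11 and a 95% interval of -0.35 to 0.14 (limma adjusted p = 0.512). As a share of the summed FPKM of the 3 glucose transporters, SLC2A3 made up 43.2%, 43.1%, 46.4% and 42.4% in the H/R libraries and 35.4%, 34.2%, 31.8% and 31.9% in the H/R+BA libraries. The groups lay far apart, with a mean difference of -10.5 percentage points. The two-sided exact permutation p was 0.0286, the smallest that 4 libraries against 4 allow, and 0.114 after Benjamini-Hochberg adjustment over the 12 isoform shares examined.

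SLC2A4 (GLUT4), the insulin-responsive transporter of adult heart, skeletal muscle and fat, was close to absent. It stood at 0.679, 0.440, 0.912 and 0.378 FPKM in the H/R libraries and 1.35, 1.36, 1.39 and 0.960 FPKM in the H/R+BA libraries, under the level required for testing. The groups did not overlap, although replicate 3 of H/R came close to replicate 4 of H/R+BA at 0.912 against 0.960 FPKM. With no filter on expression its log2 fold change of 0.51 had a limma adjusted p of 0.0540, and with a filter on normalized counts in place of FPKM the adjusted p was 0.0114.

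Hexokinases trap glucose in the cell as glucose-6-phosphate. HK1, the constitutive form bound to mitochondria, was the more abundant, at 204, 153, 202 and 172 FPKM in the H/R libraries and 229, 241, 191 and 192 FPKM in the H/R+BA libraries. These ranges overlapped, and the log2 fold change of 0.22 did not pass the test (limma adjusted p = 0.166). HK2 (ENSG00000159399, chr2:74834127-74893359, plus strand), the form of insulin-responsive and of hypoxic tissue, was at 25.8, 30.2, 25.9 and 26.4 FPKM in the H/R libraries and 33.0, 36.3, 32.9 and 34.6 FPKM in the H/R+BA libraries. All H/R+BA libraries were above all H/R libraries, and HK2 rose with a log2 fold change of 0.33 ± 0.06 (SE, limma adjusted p = 0.00596). HK2 made up 13.1% ± 2.42 of hexokinase FPKM after H/R and 13.9% ± 1.26 after H/R+BA (SD, n = 4, two-sided exact permutation p = 0.600), so a change in the balance of the isoforms was not detectable.

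Glucose-6-phosphate isomerase, which makes fructose-6-phosphate, is encoded by GPI alone (ENSG00000105220, chr19:34359480-34402413, plus strand). GPI was at 360, 296, 344 and 303 FPKM in the H/R libraries and 404, 439, 380 and 376 FPKM in the H/R+BA libraries. The groups were separate, with a log2 fold change of 0.30 ± 0.08 (SE, limma adjusted p = 0.0227). The adjusted p rose to 0.0573 without H/R replicate 4, to 0.0589 without H/R+BA replicate 1 and to 0.0675 without H/R+BA replicate 2.

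Phosphofructokinase is the committed and most tightly regulated step of glycolysis, and none of its 3 genes passed the test. PFKP, the platelet form, dominated, with 602, 442, 581 and 469 FPKM in the H/R libraries and 552, 584, 482 and 478 FPKM in the H/R+BA libraries. PFKL, the liver form, had the lowest mean over the 8 libraries, with 63.9, 55.5, 58.8 and 48.6 FPKM in the H/R libraries and 55.5, 57.1, 53.3 and 55.1 FPKM in the H/R+BA libraries. PFKM was below PFKL in every H/R library, so the 2 had no fixed order. The H/R+BA range lay inside the H/R range for PFKL, and it lay inside it for PFKP as well. The 95% intervals of the log2 fold change were -0.24 to 0.26 for PFKP, -0.20 to 0.14 for PFKL and -0.03 to 0.43 for PFKM, the muscle form (54.0 ± 6.45 and 62.0 ± 7.31 FPKM, SD, n = 4 each, limma adjusted p = 0.187). The share of PFKM in the family was 8.54% ± 0.495 after H/R and 9.65% ± 0.392 after H/R+BA, and 1 library of each group lay in the range of the other (two-sided exact permutation p = 0.0571, 0.171 after adjustment over the 12 shares).

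The PFKFB enzymes make and break fructose-2,6-bisphosphate, the activator of phosphofructokinase. PFKFB2, the heart form, was low, at 3.83, 3.10, 4.18 and 3.74 FPKM in the H/R libraries and 5.51, 4.61, 4.28 and 5.45 FPKM in the H/R+BA libraries. The groups were separate by a narrow margin, and PFKFB2 (ENSG00000123836, chr1:207034366-207081024, plus strand) rose with a log2 fold change of 0.34 ± 0.10 (SE, limma adjusted p = 0.0386). This call did not hold when 1 library was left out, with an adjusted p of 0.0652, 0.0764 and 0.0689 without H/R replicates 1, 2 and 4 and of 0.104, 0.0622 and 0.1001 without H/R+BA replicates 1, 2 and 4. PFKFB3, the hypoxia-inducible form with the highest kinase activity, was the most abundant, at 63.1, 100.4, 58.3 and 80.7 FPKM in the H/R libraries and 67.6, 74.1, 83.8 and 85.7 FPKM in the H/R+BA libraries. H/R replicate 2 was above every H/R+BA library, and the log2 fold change was 0.07 (limma adjusted p = 0.791). It was 0.35 without H/R replicates 2 and 4 (adjusted p = 0.0293). PFKFB4, another hypoxia-inducible form, had means of 23.8 ± 5.76 and 30.9 ± 3.58 FPKM (SD, n = 4 each) and a log2 fold change of 0.38 (limma adjusted p = 0.0842), and its adjusted p was 0.00576 without H/R replicate 2. PFKFB1, the liver and skeletal muscle form, was at 0.189, 0.194, 0.209 and 0.146 FPKM in the H/R libraries and 0.152, 0.0948, 0.0586 and 0.157 FPKM in the H/R+BA libraries and was not tested. The share of PFKFB3 in the family was 72.9% ± 1.93 after H/R and 68.3% ± 2.36 after H/R+BA (SD, n = 4), without overlap. The two-sided exact permutation p was 0.0286, and 0.114 after adjustment over the 12 shares.

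Aldolase splits the hexose into trioses. ALDOA, the muscle form, was at 2963, 2373, 2724 and 2532 FPKM in the H/R libraries and 2860, 3014, 2857 and 2755 FPKM in the H/R+BA libraries, second only to GAPDH among the 31 genes. ALDOC, the brain form, was at 36.5, 32.5, 33.4 and 31.2 FPKM in the H/R libraries and 40.7, 39.0, 34.5 and 35.4 FPKM in the H/R+BA libraries. The groups overlapped for both genes, and neither the log2 fold change of ALDOA (0.12, limma adjusted p = 0.320) nor that of ALDOC (0.16, adjusted p = 0.129) passed the test.

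Triosephosphate isomerase, the single enzyme that brings both trioses into the later part of the pathway, was higher in the H/R+BA group. TPI1 (ENSG00000111669, chr12:6867119-6870948, plus strand) was at 1017, 933, 972 and 891 FPKM in the H/R libraries and 1173, 1215, 1122 and 1116 FPKM in the H/R+BA libraries. The lowest H/R+BA library was above the highest H/R library, with a log2 fold change of 0.28 ± 0.06 (SE, limma adjusted p = 0.0114). GAPDH, which reduces NAD as it oxidises the triose and is often used as a reference gene, was the most abundant member, with 6783 ± 586 and 7400 ± 410 FPKM (SD, n = 4 each). Its log2 fold change of 0.13 had a 95% interval of -0.09 to 0.34 (limma adjusted p = 0.359). PGK1, which makes the first ATP of the pathway (ENSG00000102144, chrX:77910739-78129295, plus strand), was at 948, 871, 953 and 893 FPKM in the H/R libraries and 1084, 1112, 984 and 1017 FPKM in the H/R+BA libraries.

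PGK1 was separate between the groups, but its log2 fold change was the smallest of the called genes at 0.19 ± 0.06 (SE, limma adjusted p = 0.0491). The call was lost without any one library other than H/R replicate 3, with an adjusted p of 0.0667, 0.0893 and 0.101 without H/R replicates 1, 2 and 4 and of 0.128, 0.138, 0.0549 and 0.0783 without H/R+BA replicates 1 to 4. It was also lost with FPKM rescaled by median ratios and with the normalized counts.

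Phosphoglycerate mutase moves the phosphate group within phosphoglycerate. The ubiquitous PGAM1 was at 299.7, 251, 292 and 243 FPKM in the H/R libraries and 299.4, 304, 293 and 289.6 FPKM in the H/R+BA libraries, with overlapping groups and a log2 fold change of 0.13 (limma adjusted p = 0.210). The muscle form PGAM2 (ENSG00000164708, chr7:44062727-44065567, minus strand) was at 17.02, 12.2, 18.3 and 11.2 FPKM in the H/R libraries and 26.8, 23.03, 25.8 and 18.4 FPKM in the H/R+BA libraries. PGAM2 had the largest fold change of the 29 tested genes, 0.66 ± 0.17 (SE, limma adjusted p = 0.0180), although replicate 3 of H/R (18.34) all but met replicate 4 of H/R+BA (18.35). Its adjusted p was 0.0532 without H/R+BA replicate 1 and 0.0509 without H/R+BA replicate 3. As a share of mutase FPKM, PGAM2 took 5.38%, 4.65%, 5.92% and 4.39% in the H/R libraries and 8.23%, 7.05%, 8.10% and 5.96% in the H/R+BA libraries. The groups were separate, again by a narrow margin, with a two-sided exact permutation p of 0.0286 and 0.114 after adjustment over the 12 shares.

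Enolase makes phosphoenolpyruvate, and all 3 of its genes had a higher mean in the H/R+BA group. ENO1, the ubiquitous form (ENSG00000074800, chr1:8861000-8879190, minus strand), was at 1838, 1786, 1728 and 1739 FPKM in the H/R libraries and 2229, 2312, 2129 and 2149 FPKM in the H/R+BA libraries. Its groups lay well apart, with a log2 fold change of 0.31 ± 0.06 (SE, limma adjusted p = 0.00632). ENO2, the neuronal form (ENSG00000111674, chr12:6913745-6923698, plus strand), was at 235, 199, 235 and 211 FPKM in the H/R libraries and 274, 300.1, 242 and 254 FPKM in the H/R+BA libraries. Its groups were separate, and the log2 fold change was 0.28 ± 0.08 (SE, limma adjusted p = 0.0334). The ENO2 call was lost without H/R replicate 2 (adjusted p = 0.0665) or 4 (0.0761) and without H/R+BA replicate 1 (0.0841), 2 (0.0892) or 4 (0.0512). ENO3, the muscle form, had 282 ± 45.4 and 339 ± 26.8 FPKM (SD, n = 4 each), with a log2 fold change of 0.27 that did not pass the test (limma adjusted p = 0.0984). It passed without H/R replicate 1 (0.0358), with FPKM rescaled to equal totals (0.0385), with the normalized counts (0.0366) and with the hepatic and endoderm marker level as a covariate (0.00667). The isoform shares did not differ detectably, with ENO2 at 9.67% ± 0.592 and 9.502% ± 0.489 and ENO3 at 12.4% ± 1.54 and 12.0% ± 0.651 of enolase FPKM after H/R and after H/R+BA, respectively (SD, n = 4, two-sided exact permutation p = 0.657 and 0.743).

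Pyruvate kinase, which makes the last ATP of the pathway, is encoded here by PKM. PKM had 1158 ± 71.7 and 1248 ± 64.6 FPKM (SD, n = 4 each) and a log2 fold change of 0.11 with a 95% interval of -0.04 to 0.26 (limma adjusted p = 0.269). The table gives 1 value per gene, so the splice forms of PKM could not be compared.

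Both lactate dehydrogenase genes and 1 of the 2 lactate transporter genes, SLC16A3, passed the test with higher values after H/R+BA. LDHA, the form that favours lactate production (ENSG00000134333, chr11:18394560-18408425, plus strand), was at 1674, 1613, 1698 and 1686 FPKM in the H/R libraries and 2222, 2301, 2055 and 2028 FPKM in the H/R+BA libraries. The H/R libraries, replicates 2 and 4 included, were within a narrow range below all H/R+BA libraries, and LDHA had the lowest adjusted p of the 29 genes (log2 fold change 0.37 ± 0.07, SE, limma adjusted p = 0.00443). LDHB, the heart form that favours lactate use (ENSG00000111716, chr12:21635342-21757857, minus strand), was at 352, 272, 375 and 321 FPKM in the H/R libraries and 454, 439, 410 and 381 FPKM in the H/R+BA libraries. It rose by a like amount (0.36 ± 0.10, SE, limma adjusted p = 0.0271), with the groups barely separate. The LDHB call was lost without H/R replicate 4 (adjusted p = 0.0592) and without H/R+BA replicate 1 (0.0767), 2 (0.0745) or 3 (0.0547). LDHA made up 83.5% ± 1.61 of lactate dehydrogenase FPKM after H/R and 83.6% ± 0.532 after H/R+BA (SD, n = 4, two-sided exact permutation p = 0.914).

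SLC16A3 (MCT4), the low-affinity transporter that exports lactate from glycolytic cells (ENSG00000141526, chr17:82217934-82261129, plus strand), was at 243, 268, 232 and 235 FPKM in the H/R libraries and 276, 319, 293 and 315 FPKM in the H/R+BA libraries. The groups were separate, with a log2 fold change of 0.30 ± 0.07 (SE, limma adjusted p = 0.0110). SLC16A1 (MCT1), which carries lactate in either direction and is the main form of heart muscle, was at 81.5, 59.6, 88.2 and 65.0 FPKM in the H/R libraries and 101, 109, 82.5 and 93.1 FPKM in the H/R+BA libraries. Its log2 fold change of 0.40 was larger than that of SLC16A3, but H/R replicate 3 lay above H/R+BA replicate 3 and the test was narrowly missed (95% interval 0.11 to 0.69, limma adjusted p = 0.0504). SLC16A1 passed without H/R replicate 3 (0.0218) or H/R+BA replicate 3 (0.0417), and its log2 fold change fell to 0.18 without H/R replicates 2 and 4 (0.229).

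**Figure D3:**
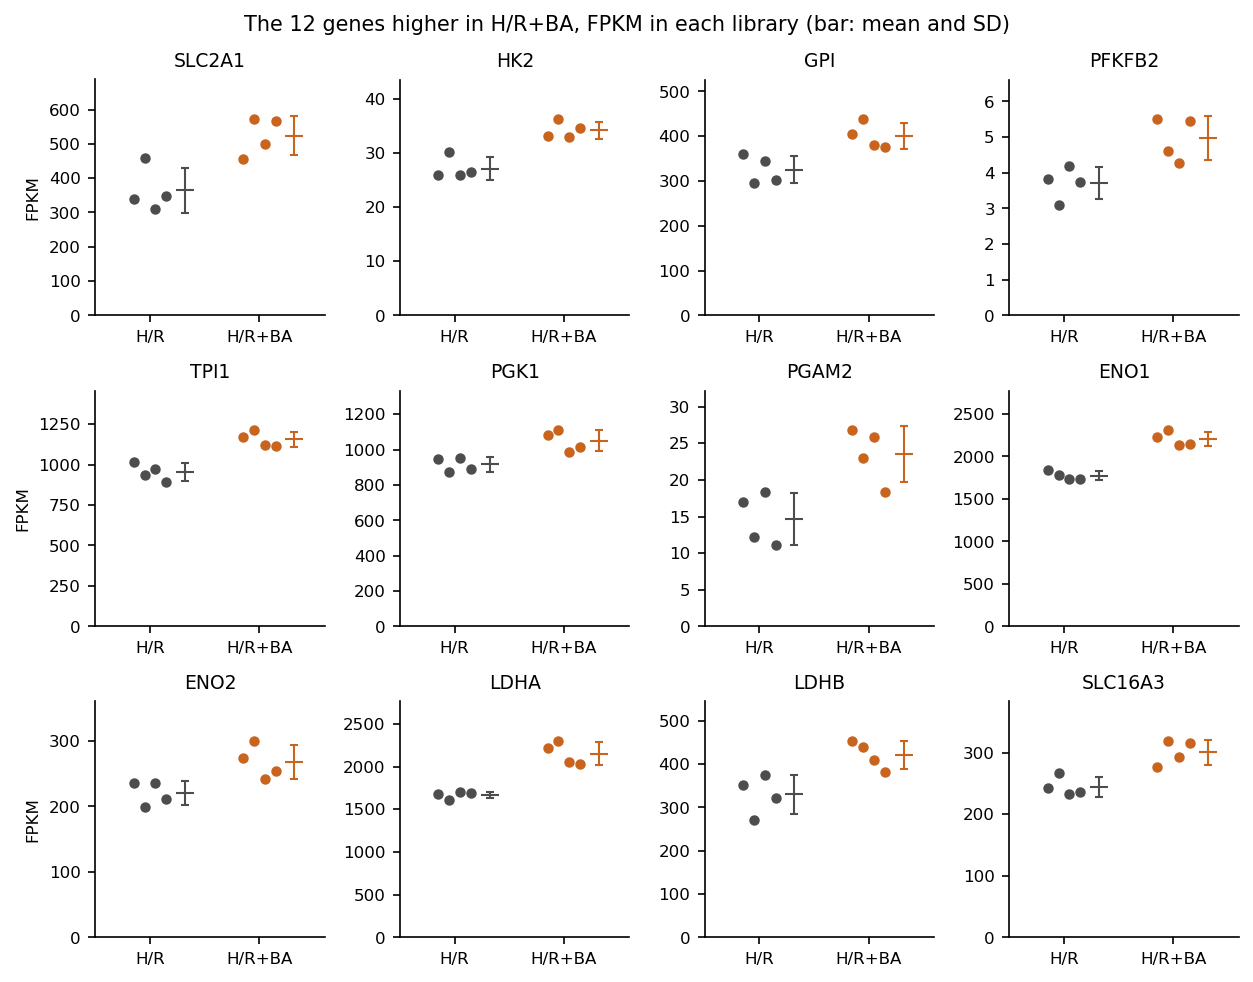
FPKM (y axis, from 0) in each library for the 12 genes called higher, with 1 point per library, H/R in grey and H/R+BA in orange, and the mean with its SD beside the points. The groups do not overlap except for SLC2A1, where H/R replicate 2 (459 FPKM) is above H/R+BA replicate 1 (455 FPKM), and the gap is narrowest for PGAM2.

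The PDKs phosphorylate and switch off pyruvate dehydrogenase, and none of PDK1, PDK2 and PDK3 was called. The fourth PDK gene, PDK4, is not among the 31 and is given with the neighbouring pathways. PDK1, the hypoxia-inducible form, was at 77.7, 69.3, 93.3 and 73.7 FPKM in the H/R libraries and 90.6, 94.5, 85.9 and 92.0 FPKM in the H/R+BA libraries. PDK3 was the lowest of the 3, at 17.6, 16.04, 20.2 and 14.6 FPKM in the H/R libraries and 19.9, 21.5, 18.3 and 20.97 FPKM in the H/R+BA libraries. H/R replicate 3 overlapped with the H/R+BA group for both genes. The log2 fold change was 0.21 for PDK1 (limma adjusted p = 0.0930), 0.23 for PDK3 (0.107) and 0.10 for PDK2 (0.640), which had 31.6 ± 6.54 and 33.7 ± 4.17 FPKM (SD, n = 4 each). Without H/R replicate 3, PDK1 (0.00764) and PDK3 (0.0271) passed the threshold. PDK1 made up 61.8% ± 1.54 of the summed FPKM of PDK1 to PDK3 after H/R and 62.8% ± 1.80 after H/R+BA (two-sided exact permutation p = 0.457).

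Of the 12 isoform shares examined, 3 had groups that did not overlap, those of SLC2A3, PFKFB3 and PGAM2. All 3 had the smallest two-sided exact permutation p that 4 libraries against 4 allow, 0.0286. None passed the adjustment over the 12 (0.114), and none could have passed unless more of the 12 had also been at this smallest p. The adjusted p therefore cannot decide whether these 3 shares differ. With one of the libraries left out in turn, the difference in the SLC2A3 share lay between -11.1 and -9.58 percentage points, that in the PFKFB3 share between -5.36 and -3.57 and that in the PGAM2 share between 1.95 and 2.71. H/R replicates 2 and 4 were close to the other H/R libraries in the SLC2A3 share, and SLC2A3 itself was not called, whereas SLC2A1 was.

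**Figure D4:**
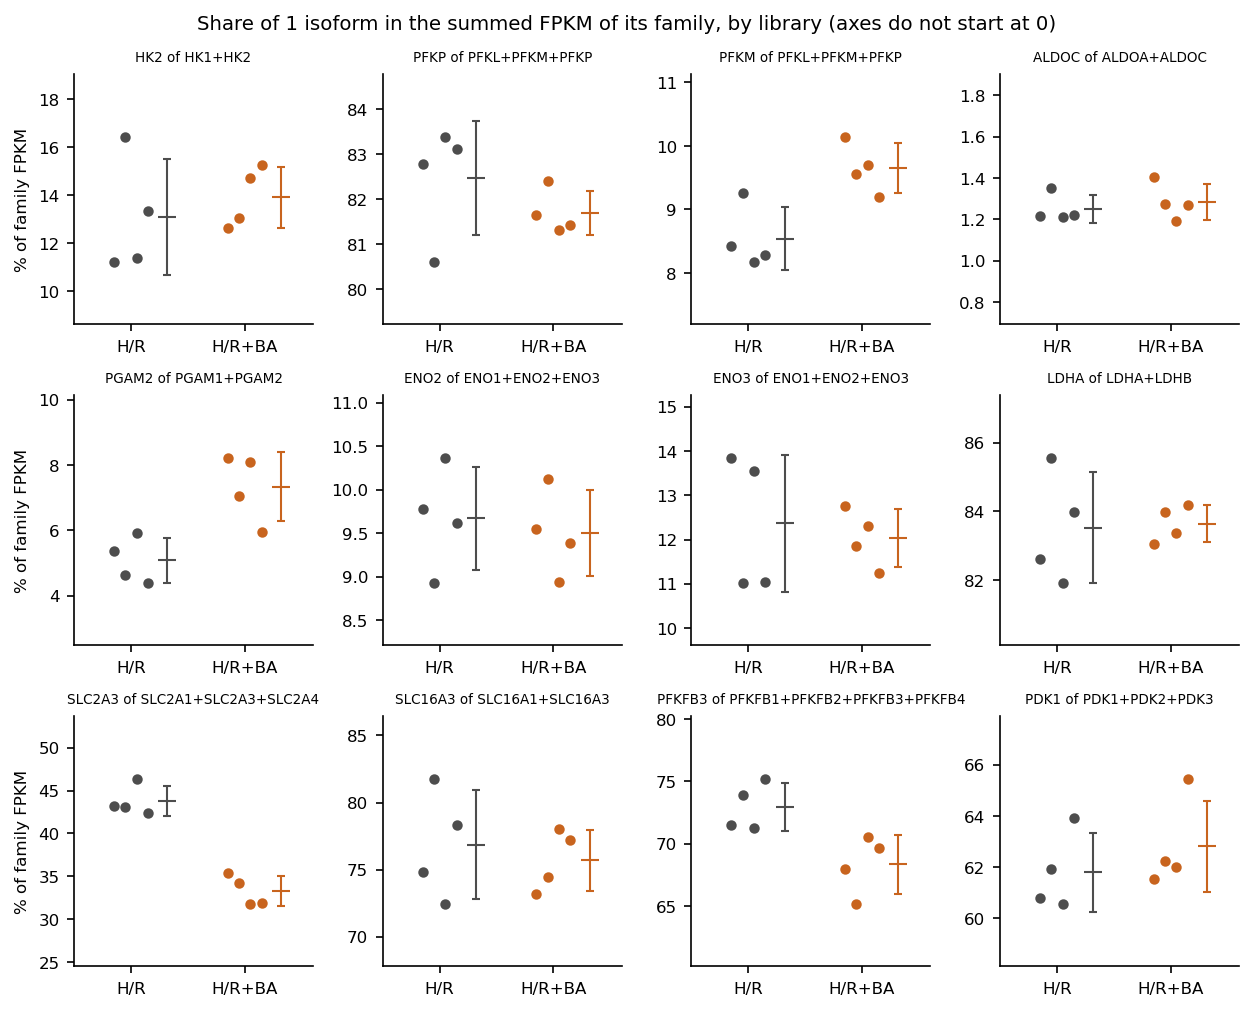
Share of 1 isoform in the summed FPKM of its family (y axis, percent, axes not from 0) in each library, for the 12 shares examined, with the mean and SD beside the points. The SLC2A3 share (43.8% ± 1.77 after H/R and 33.3% ± 1.76 after H/R+BA), the PFKFB3 share and the PGAM2 share are the 3 without overlap, and the LDHA share lies between 81.9% and 85.6% in all 8 libraries.

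Reads from processed pseudogenes were small beside those of the genes themselves. Of the 31 genes, 12 had pseudogenes in the table (104 rows), whose summed FPKM came to less than 1% of the parent gene for 10. The exceptions were LDHA (1.66%), mostly LDHAP4, and SLC2A3 (4.32%), mostly SLC2A3P1. LDHAP4 was at 26.1, 26.3, 28.2 and 29.1 FPKM in the H/R libraries and 36.9, 38.3, 33.4 and 34.0 FPKM in the H/R+BA libraries, and it rose with the same log2 fold change as LDHA, 0.37 (limma adjusted p = 0.00335). SLC2A3P1 fell by 0.25 on the log2 scale (limma adjusted p = 0.0326), from 12.9 ± 0.539 to 10.7 ± 0.995 FPKM. Whether these are transcripts of the pseudogenes or reads of near-identical parents cannot be told apart in gene-level values, and the sources used here do not say whether the counting used the strand.

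Neighbouring pathways, taken as 7 lists of 120 genes of which 100 were tested, had 26 genes called higher and 11 lower, against 13.7% and 11.1% of all genes tested. Among other isoforms and side enzymes of glycolysis, 4 of 9 tested were higher and 0 lower. HKDC1, a further hexokinase, rose from 3.69 ± 1.28 to 8.78 ± 1.403 FPKM (log2 fold change 1.09, limma adjusted p = 0.00369), TIGAR, a phosphatase that lowers fructose-2,6-bisphosphate, rose from 18.2 ± 1.38 to 24.2 ± 1.27 FPKM (0.39, adjusted p = 0.00347), and LDHD, the D-lactate dehydrogenase, rose by 0.55 (adjusted p = 0.00995). Isoforms best known from other tissues (HK3, PKLR, FBP1, FBP2, PGK2, GAPDHS, LDHC, LDHAL6A and LDHAL6B) stayed below 1 FPKM in every library. Of 12 other transporters of glucose and lactate tested, 1 was higher and 3 were lower, SLC2A6, a lysosomal transporter (-0.40, adjusted p = 0.0106), EMB, which escorts monocarboxylate transporters to the membrane (-0.52, adjusted p = 0.0174), and SLC2A9, a urate transporter (-0.39, adjusted p = 0.0405).

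Glucose can also leave glycolysis for other routes. In the pentose phosphate pathway, which makes NADPH and ribose, 5 of 11 genes were higher and 1 lower, with TKT (log2 fold change 0.44, limma adjusted p = 0.000917) and RPE (0.48, adjusted p = 0.00192), both of its non-oxidative part, among them. In glycogen metabolism, 5 of 23 were higher and 1 lower. PPP1R3C, which targets a phosphatase to glycogen, rose from 55.3 ± 8.62 to 91.2 ± 4.60 FPKM (0.72, limma adjusted p = 0.00111), and the muscle phosphorylase PYGM (0.76, adjusted p = 0.00118) and the liver phosphorylase PYGL (0.30, adjusted p = 0.00331) rose as well. Of the branches to glycerol phosphate, hexosamine, sorbitol and serine, 5 of 12 were higher and 1 lower, led by PSPH of serine synthesis (0.71, limma adjusted p = 0.000250), SORD, which makes fructose from sorbitol (0.72, adjusted p = 0.000351), and the ketohexokinase KHK (0.66, adjusted p = 0.00231). At the entry of pyruvate into mitochondria, 2 of 12 were higher and 1 lower. PDHB, a subunit of pyruvate dehydrogenase, fell by 0.36 on the log2 scale (limma adjusted p = 0.0181), whereas MPC2 of the pyruvate carrier (0.23, adjusted p = 0.0249) and PDK4, the fasting-induced PDK (0.31, adjusted p = 0.0338), rose.

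Regulators of glycolytic genes went both ways, with 4 of 21 higher and 4 lower. EGLN3, a prolyl hydroxylase that is itself a hypoxia target, rose from 99.2 ± 5.45 to 146 ± 13.01 FPKM (log2 fold change 0.55, limma adjusted p = 0.000932), and HIF3A rose from 7.87 ± 2.67 to 15.7 ± 0.844 FPKM (0.96, adjusted p = 0.00580). PRKAA1, a catalytic subunit of AMP-activated kinase, fell by 0.26 on the log2 scale (adjusted p = 0.00639). HIF1A, with means of 119 ± 19.8 and 115 ± 14.1 FPKM, was not called (log2 fold change -0.05, limma adjusted p = 0.816). Neither EPAS1 (0.48, adjusted p = 0.136) nor ARNT (0.23, adjusted p = 0.0830) was called, and HIF1AN was lower (-0.23, adjusted p = 0.0288).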

How the data were processed

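Reads were trimmed (Trimmomatic 0.39), aligned to GRCh38.p5 (HISAT2 2.1.0) and quantified (featureCounts 2.0.6) by the authors, who also name Cuffdiff 2.2.1. The sources used here do not name the gene annotation. The deposited table holds FPKM normalized between libraries by the authors, and normalized counts, a signal that the authors scaled by 1 factor for each library and from which whole reads could not be recovered. The deposited sequencing summary gives reads and the percent mapped by the authors. The authors' own fold changes and p-values and 4 columns of group means were not used, nor were 9 libraries of other samples.

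Of 60658 genes, the 14334 that reached 1 FPKM in 4 or more libraries were compared on log2(FPKM + 1) with limma 3.58.1 in R 4.3.3 (trend, two-sided, Benjamini-Hochberg adjustment, threshold 0.05). Isoform shares were compared by exact permutation. FPKM carry no counting interval, so precision is given by the spread between libraries. Coordinates came from GENCODE 44 by gene ID. The test was checked on simulated data with folds of 1.5, 2 and 4, of which it recovered 77.6%, 92.5% and 100%. Smaller folds were not simulated, and among the called genes only PGAM2 had a ratio of means above 1.5. The check therefore does not cover most of the changes reported here. The members, the lists and the tests were chosen with earlier results of these data known. Every member was accounted for, with values in each library where it was called or was the most or least abundant isoform, up to 3 called genes of each neighbouring list with the smallest p were named, and the 3 most abundant of each marker list. Some genes of the neighbouring lists are not reported here by name. The pseudogenes, the genes that gained a call and the list members under 1 FPKM were named after their values were seen. So were the called fibroblast and smooth muscle markers and the regulators HIF1A, EPAS1, ARNT and HIF1AN.

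Alternatives were another pseudocount (0.1), other filters, other scalings, the normalized counts, fits without a trend or moderation, a replicate block and leaving out each library.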

Additional observations from a re-analysis of the deposited data

Results flagged for a closer look

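In 4 of 86 groups of 4 libraries examined (the FPKM of each gene and the isoform shares, in each group), 1 library stood apart from the other 3 by Dixon's ratio at its 95% critical value, and chance flags about 1 group in 20. SLC2A3 was at 348 FPKM in H/R replicate 2 against 257 to 269 FPKM in the other H/R libraries. HK2 was at 30.2 FPKM in H/R replicate 2 against 25.8 to 26.4 FPKM in the others. The share of ALDOC in aldolase FPKM was 1.35% in H/R replicate 2 against 1.21% to 1.22% in the others. SLC2A4 was at 0.960 FPKM in H/R+BA replicate 4 against 1.35 to 1.39 FPKM in the others. H/R replicate 2 is also the library with the highest hepatic and endoderm marker sum, and the part of this in the 3 values was not tested.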

How the results depend on the processing

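No gene was called lower in any of the 20 alternatives, and all 12 called genes kept a fold change above 0 in each. HK2, TPI1, ENO1, LDHA and SLC16A3 were called in all 20 and SLC2A1 in 19, losing its call in the fit without moderation (adjusted p = 0.0511). PGK1 was called in 5, PFKFB2 in 8, ENO2 in 11, GPI and LDHB in 13 and PGAM2 in 15. The number of genes called higher was 6 with no filter (31 genes tested, 4.87% of all genes called higher), 6 with no moderation (10.8%) and 21 with the hepatic and endoderm marker level as a covariate (19.9%), an alternative added after the data were seen, against 12 and 13.7% in the fit reported, and it lay between 6 and 15 with each library left out in turn. The covariate fit gained HK1, PFKM, PFKFB4, ALDOC, PGAM1, ENO3, SLC16A1, PDK1 and PDK3. The labels do not say whether same-numbered libraries belong together. The deviations of same-numbered libraries correlated at 0.24, -0.24, -0.25 and -0.01, which does not settle whether they were paired. With the replicate number as a block 9 genes were called (10.2% of all genes called higher), 8 of them among the 12. The other scalings and the normalized counts gave 10 to 15 called genes. PFKP, at 0.01 on the log2 scale, turned to -0.03 with FPKM rescaled to equal totals without mitochondrial genes, to -0.01 with median ratios and to -0.01 with the normalized counts, and it was not called under any alternative. FPKM keep no counts, so counting error was not separated from the spread between libraries. It would weigh most on SLC2A4 (46.8 to 169 normalized counts) and PFKFB1 (4.24 to 12.2).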
